A study of Mus musculus with 5 samples.

Results

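The comparison was of the kidney of 8-week-old mice with the kidney of newborn mice (P0, the day of birth), both of the C57BL/6 strain, and covers the growth of the organ after birth. Genes entered if their probe was well above background, as the scanner software marked it, on either of these arrays: 17658 of the 24563 genes with a named probe did. Of these, 15057 were above background in both kidneys, 722 in the 8-week kidney only and 1879 in the P0 kidney only. The series holds 5 one-colour microarrays, 1 each for the 8-week, P0 and E13.5 (embryonic day) kidney and for tissue taken 2 and 4 weeks after kidney buds were transplanted, and this account uses the 8-week and P0 arrays. No genotype other than the strain and no treatment is given for either kidney, and whether an array held the RNA of 1 animal or of several is not given in the sources used here. With 1 array per age there is no spread between animals, so no test was possible and every difference below describes these 2 arrays. The number of arrays limits the precision.

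A level below is log2 of a probe's intensity minus log2 of the 75th percentile of intensities on the same array, and a difference is the 8-week level minus the P0 level. Replicate spots of a probe had a median SD of 0.07 in the 8-week kidney and 0.06 in the P0 kidney on this scale, which covers spot error only. Both arrays sat on slide 2. The defining kidney markers, 10 in number and drawn from podocytes, proximal tubule, loop of Henle, distal tubule and both collecting duct cell types, were above background in both kidneys. Of 16 markers of adrenal gland, fat, skeletal muscle, nerve, urothelium and blood cells, 11 were above background in the 8-week kidney and 13 in the P0 kidney. The Y-linked genes Ddx3y, Eif2s3y and Uty were above background in the 8-week kidney and not in the P0 kidney, and Xist, the RNA of the inactive X chromosome, was above background in the P0 kidney and not in the 8-week kidney. Sex and age therefore cannot be told apart in any difference given here.

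The mouse kidney goes on forming nephrons for a few days after birth, from a pool of progenitors under the capsule, and then stops. Over the following weeks the tubules lengthen, their cells acquire the transporters that reclaim filtered sugar, amino acids, phosphate and protein, and the proximal tubule turns to fatty acids as its main fuel. The ability to concentrate the urine, to clear drugs and to make glucose is acquired in the same period.

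Of the 17658 genes, 1577 (8.93%) were at least 4-fold higher in the 8-week kidney, of which 263 rest on a lower bound because the P0 signal was too dim. A further 1651 (9.35%) were at least 4-fold lower in the 8-week kidney, 537 of them as bounds. The middle of the distribution lay at a difference of 0.07, with quartiles of -0.78 and 0.94, and 9791 genes (55.4%) were within 2-fold of equality. A gap of 16-fold or more was reached by 317 genes with the higher level in the 8-week kidney and by 363 with the lower one, and a gap of 64-fold or more by 93 and 59, so which tail was larger depended on the fold. The count of higher against lower genes depended on the scaling. Without the percentile shift 992 genes were higher and 2552 lower, so that 28.0% of the genes past 4-fold were higher, against 48.9% with it, and the median of all genes was -0.42. The authors' deposited table, which carries no such shift, gave 1149 higher and 2969 lower, a share of 27.9% higher. Changes smaller than that shift have no settled direction.

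**Figure D1:**
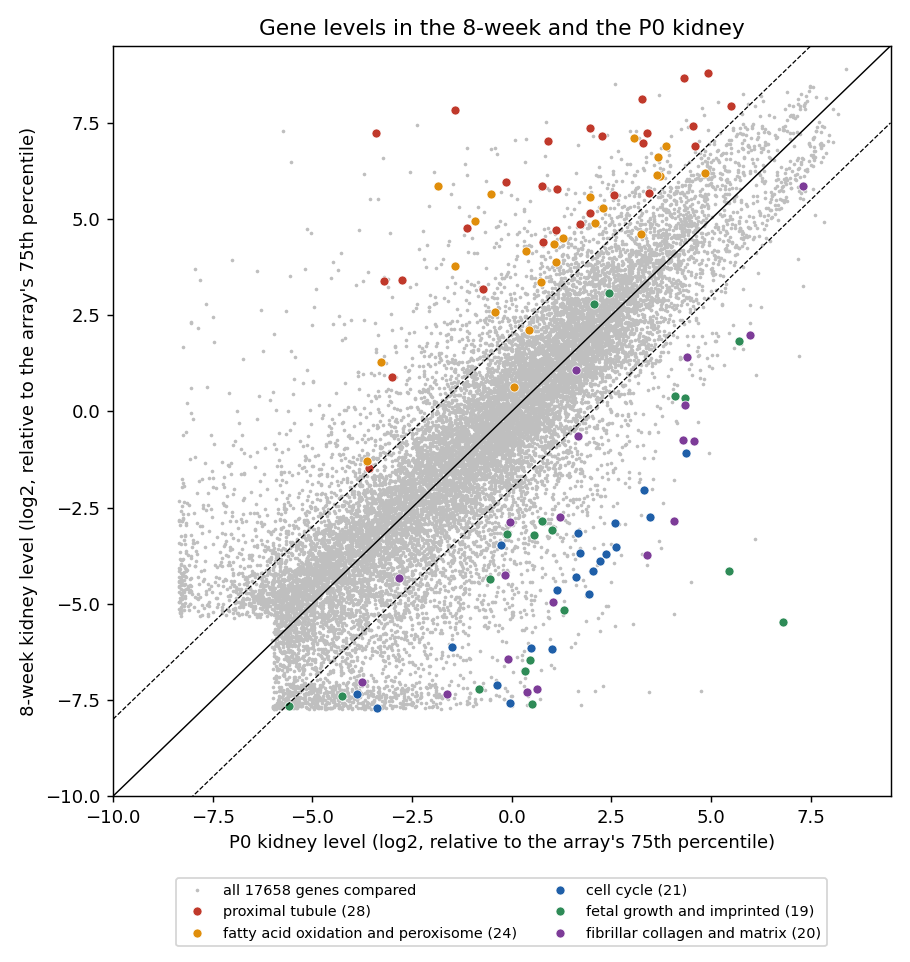
Level of each of the 17658 genes in the 8-week kidney (vertical axis) and the P0 kidney (horizontal axis), both in log2 units relative to the array's 75th percentile. The solid line marks equality, the dashed lines 4-fold. Grey points are all genes and coloured points the members of 5 gene lists, with genes below background drawn at their measured level. All 28 proximal tubule genes lie above the upper dashed line, while 20 of 21 cell cycle genes and 16 of 20 matrix genes were at least 4-fold lower in the 8-week kidney.

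The 15 largest positive differences among genes above background on both arrays included 4 genes of the cytochrome P450 family and 4 carboxylesterases. Cyp2a4, a steroid hydroxylase of the cytochrome P450 family, had a level of 7.30 in the 8-week kidney and -5.75 in the P0 kidney (8449-fold higher), with differences of 11.88 and 13.04 for its 2 probes. The carboxylesterase Ces1f stood at 6.48 in the 8-week kidney and -5.53 in the P0 kidney (4131-fold higher), and Ces2c, Ces1d and Ces2b of the same family were 940.1-fold, 546-fold and 540.1-fold higher in the 8-week kidney. These esterases share much of their sequence, so the split of signal between family members is uncertain. The others of the 15 were Cyp4b1, Cyp2e1 and Cyp4a12b of the P450 family, the hydroxysteroid dehydrogenases Akr1c21 and Akr1c14, the sugar transferases Ugt3a1 and Ugt3a2, the brush border trehalase Treh, the nuclease Dnase1 and the growth factor precursor Egf. Their folds ran between 372-fold (Cyp4a12b) and 1609-fold (Cyp4b1). Several P0 levels behind these folds lay close to the lowest level well above background on the P0 array (-6.02). They were those of Cyp2a4, Ces1f, Ces1d (-5.56), Akr1c14 (-5.17), Treh (-5.14) and Egf (-5.04). The size and the order of these folds are therefore imprecise.

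Genes that were above background in the 8-week kidney only gave lower bounds. Acot12, an acetyl-CoA thioesterase, was at least 996-fold higher in the 8-week kidney, and Kmo, which oxidises kynurenine in tryptophan breakdown, was at least 809.7-fold higher. The organic anion carrier Slco1a1 (at least 450.4-fold higher), the tyrosine-degrading enzyme Hpd (at least 323-fold higher) and the fatty acid hydroxylase Cyp4a14 (at least 317-fold higher) were among the 10 largest bounds too. The immunoglobulin heavy chain entry Igh-VJ558 was at least 694-fold higher, the one gene of lymphoid cells among them.

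Of the 15 largest negative differences among genes above background on both arrays, that of Mest came first. Mest, a paternally expressed imprinted gene, had a level of -4.16 in the 8-week kidney and 5.44 in the P0 kidney (776-fold lower), with differences of -7.80 or below for all 3 probes. Penk, which encodes the precursor of enkephalins, stood at -3.31 in the 8-week kidney and 6.11 in the P0 kidney (687-fold lower), and the progenitor gene Cited1 at -4.43 in the 8-week kidney and 4.49 in the P0 kidney (484-fold lower). The rest of the 15 included the linker histone H1f5 (167-fold lower), the microfibril proteins Mfap4 (139-fold lower) and Mfap2 (120.0-fold lower), the growth factor Ptn (126-fold lower), the calpain family member Capn6 (170.3-fold lower), Clec18a (156-fold lower) and the cell cycle arrest gene Rprm (90.4-fold lower). Each of these was lower in the 8-week kidney than in the P0 kidney. The 8-week levels of Capn6 (-5.05) and of Dlk1 (-5.17), also among the 15, lay close to the lowest level well above background on that array (-5.38).

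Among genes too dim to measure in the 8-week kidney, the imprinted non-coding RNA H19 had the largest bound. Its level was 6.80 in the P0 kidney, and it was not above background in the 8-week kidney, so the 8-week level was at least 4631-fold lower. Hdc, which makes histamine from histidine, was at least 649-fold lower, and Serpina6, the corticosteroid carrier of plasma, was at least 341-fold lower. Aldh1a3, which makes retinoic acid, and Rspo1, which strengthens Wnt signalling, were at least 194-fold lower and at least 177-fold lower. The LIM domain gene Crip2 had a bound of at least 1123-fold from 1 probe, which read 4.75 in the P0 kidney and 5.19 in the 4-week transplant.

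**Figure D2:**
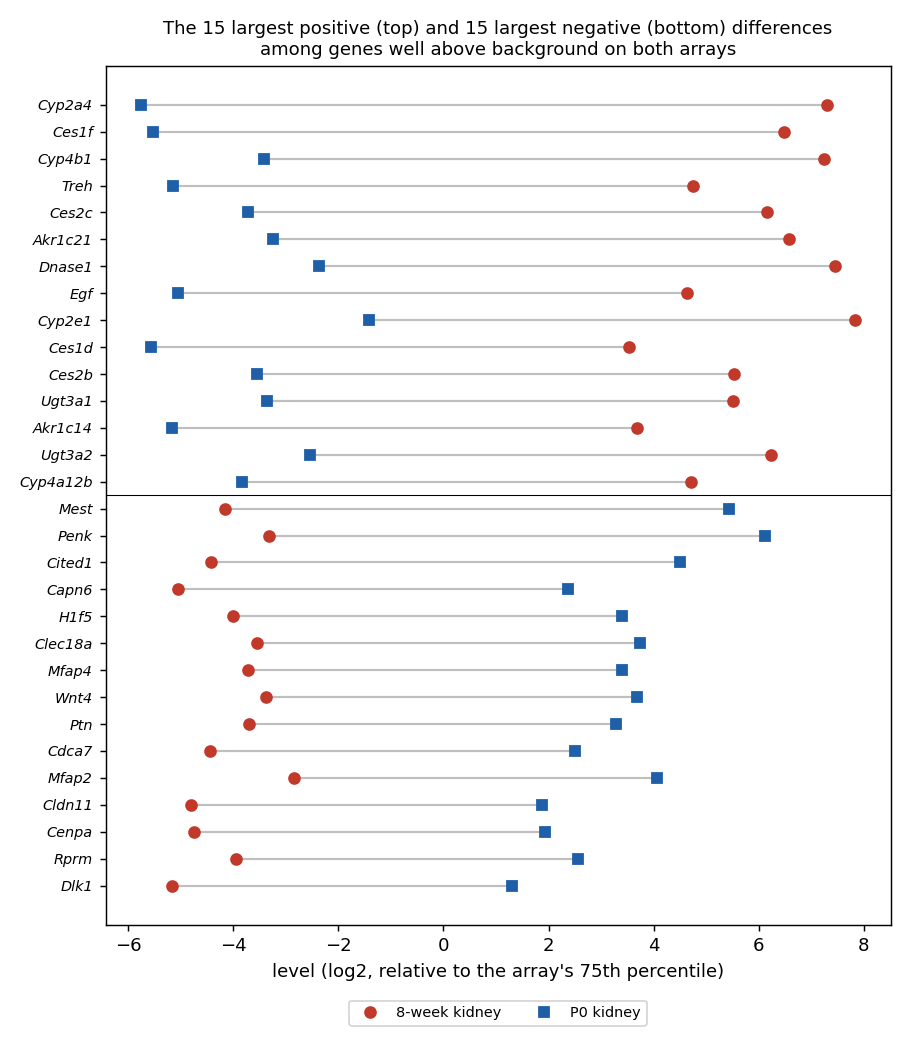
Levels in the 8-week kidney (red circles) and the P0 kidney (blue squares) of the 15 genes with the largest positive (upper block) and the 15 with the largest negative differences (lower block) among genes above background on both arrays, in log2 units relative to the array's 75th percentile. Grey lines join the 2 values of a gene. The widest gap is that of Cyp2a4, 13.04 log2 units, and the narrowest of the lower block that of Dlk1, 6.49.

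Each of the 28 proximal tubule genes was past 4-fold with the higher level in the 8-week kidney, with a median difference of 3.90, against 0.07 over all genes. The counts of this and the later lists stand against 8.93% of all genes at least 4-fold higher and 9.35% lower. The phosphate carrier Slc34a1 had a level of 7.24 in the 8-week kidney and 3.39 in the P0 kidney (14.46-fold higher). The glucose carrier Slc5a2, which reclaims most filtered glucose, stood at 5.78 in the 8-week kidney and 1.13 in the P0 kidney (25.00-fold higher). The sulphate carrier Slc13a1 was at 3.40 in the 8-week kidney and -3.20 in the P0 kidney (96.7-fold higher), and the neutral amino acid carrier Slc6a19 was 71.9-fold higher. The smallest difference on the list was that of Slc5a1, the second glucose carrier, which was 4.31-fold higher. In whole kidney RNA, more cells of a type and more RNA per cell cannot be told apart.

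Carriers of organic anions and cations, which secrete drugs and metabolites into the urine, were higher as a group: 20 of 25 were at least 4-fold higher and 1 lower, with a median of 3.77. The anion carrier Slc22a7 had a level of 6.15 in the 8-week kidney and -1.12 in the P0 kidney (154-fold higher), the urate carrier Slc22a12 was 59.5-fold higher and the cation extruder Slc47a1 was 11.1-fold higher. Slc22a27 went the other way, at -3.65 in the 8-week kidney and -0.98 in the P0 kidney (6.37-fold lower). The export pump Abcc4 was within 2-fold, at 0.52 in the 8-week kidney and 0.11 in the P0 kidney, while Abcc2, another export pump, was 35.0-fold higher.

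Sugar carriers lay on both sides of equality. Of 15, 9 were at least 4-fold higher, among them the fructose carrier Slc2a5 (33.6-fold higher), the mannose and fructose cotransporter Slc5a10 (41.7-fold higher) and the lactate cotransporter Slc5a12 (15.2-fold higher). The 2 that were at least 4-fold lower were Slc16a3, the lactate exporter of glycolytic cells, at -3.44 in the 8-week kidney and 2.49 in the P0 kidney (61.1-fold lower), and the glucose carrier Slc2a3 (at least 20.2-fold lower). Amino acid carriers had 12 of 21 at least 4-fold higher and 3 lower, with a median of 2.38. Slc7a13 (58.3-fold higher), Slc6a20b (25.8-fold higher) and the glutamate carrier Slc1a1 (19.03-fold higher) were higher. The glutamine carrier Slc38a1 was 20.1-fold lower. Slc7a5, which supplies essential amino acids to growing cells, cannot be read as 1 value, since its 2 probes differed in direction, at -3.90 and 1.15, and it is among the 3.

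Genes of phosphate, calcium and vitamin D handling had 9 of 17 at least 4-fold higher and none lower, with a median of 2.01. The second renal phosphate carrier Slc34a3 had a level of 4.38 in the 8-week kidney and -0.38 in the P0 kidney (27.2-fold higher). The vitamin D receptor Vdr stood at 3.46 in the 8-week kidney and -0.19 in the P0 kidney (12.6-fold higher) and Cyp24a1, which inactivates vitamin D, at 2.28 in the 8-week kidney and -1.14 in the P0 kidney (10.72-fold higher). Cyp27b1, which activates vitamin D, went the other way at -3.001 in the 8-week kidney and -1.51 in the P0 kidney (2.81-fold lower), so the activating and the inactivating enzyme lay on opposite sides of equality. Klotho (Kl), the coreceptor for the phosphate-lowering hormone FGF23, was 9.67-fold higher.

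The receptors that take up filtered protein, Lrp2 (megalin) and Cubn (cubilin), were 8.36-fold higher and 12.49-fold higher, and their partner Amn was 5.03-fold higher. The list of endocytosis genes had 6 of 13 at least 4-fold higher, none lower and a median of 1.97. The clathrin light chain Cltb was 4.07-fold higher, while Ap2a1, a clathrin adaptor subunit, was near equality, at 1.51 in the 8-week kidney and 1.43 in the P0 kidney.

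The loop of Henle list had 6 of 14 genes at least 4-fold higher and none lower, with a median of 1.80. Egf, whose precursor is made in the distal nephron, had a level of 4.63 in the 8-week kidney and -5.04 in the P0 kidney (818-fold higher). Umod, which encodes uromodulin, the most abundant protein of normal urine, stood at 7.28 in the 8-week kidney and 2.97 in the P0 kidney (19.8-fold higher), and the salt carrier Slc12a1 at 0.95 in the 8-week kidney and -1.35 in the P0 kidney (4.91-fold higher). Slc14a2, the urea carrier, cannot be read as 1 value, since its 2 probes differed in direction, at 2.22 and -4.59, and without it 5 genes of the list were at least 4-fold higher. The distal convoluted and connecting tubule list had 5 of 14 at least 4-fold higher and none lower, with a median of 1.31. Its salt carrier Slc12a3 (6.67-fold higher) and the calcium buffer Pvalb (6.18-fold higher) were among them, while the calcium-binding S100g was near equality at 5.78 in the 8-week kidney and 5.35 in the P0 kidney.

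In the collecting duct the intercalated and the principal cell lists gave different counts. Of 15 genes of intercalated cells, which secrete acid or base, 6 were at least 4-fold higher and none lower, with a median of 1.55. They included the chloride and bicarbonate exchangers Slc26a4 (16.6-fold higher) and Slc4a1 (6.78-fold higher) and the water channel Aqp6 (7.49-fold higher), although Slc4a1 is expressed by red cells too. Of 14 genes of principal cells, which reabsorb sodium and water, none was at least 4-fold higher and 2 were lower, with a median of -0.05 that lay between -0.61 and 0.10 over the other settings. Over all genes compared, 8.93% were at least 4-fold higher and 9.35% lower. The water channel Aqp2 had a level of 2.96 in the 8-week kidney and 4.12 in the P0 kidney (2.24-fold lower), and the 2 lower genes were the transcription factors Elf5 (16.1-fold lower) and Gata3 (5.52-fold lower). The sodium channel subunit Scnn1a was 3.72-fold higher, and its partners Scnn1b and Scnn1g were at -0.41 in the 8-week kidney and 0.25 in the P0 kidney and at -3.01 in the 8-week kidney and -2.57 in the P0 kidney.

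Urine concentration genes had 6 of 19 at least 4-fold higher and 1 lower, with a median of 0.78 (0.22 without the percentile shift), and Slc14a2 is among the 6. The water channels Aqp7 (6.87-fold higher) and Aqp11 (4.95-fold higher) were higher and Aqp5 was lower (at least 9.56-fold). The vasopressin receptor Avpr2 differed little, at -0.20 in the 8-week kidney and -0.55 in the P0 kidney. In the list of the sodium pump and its regulators 4 of 17 were at least 4-fold higher and none lower, with a median of 1.33. The potassium channels Kcnj15 (22.0-fold higher) and Kcnj16 (17.1-fold higher) and the sodium and hydrogen exchanger Slc9a3 (15.01-fold higher) were the furthest apart.

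Claudins, which set the permeability of tight junctions, had 1 of 17 at least 4-fold higher and 6 lower, with a median of -1.33. Cldn2, the leaky claudin of the proximal tubule, had a level of 3.65 in the 8-week kidney and 1.38 in the P0 kidney (4.81-fold higher). Cldn11 stood at -4.79 in the 8-week kidney and 1.87 in the P0 kidney (102-fold lower), and Cldn6, a claudin of embryonic epithelia, was at least 48.4-fold lower. The loop of Henle claudins Cldn16 and Cldn19 were within 2-fold, at -1.002 in the 8-week kidney and -1.56 in the P0 kidney and at -0.93 in the 8-week kidney and -1.76 in the P0 kidney.

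**Figure D3:**
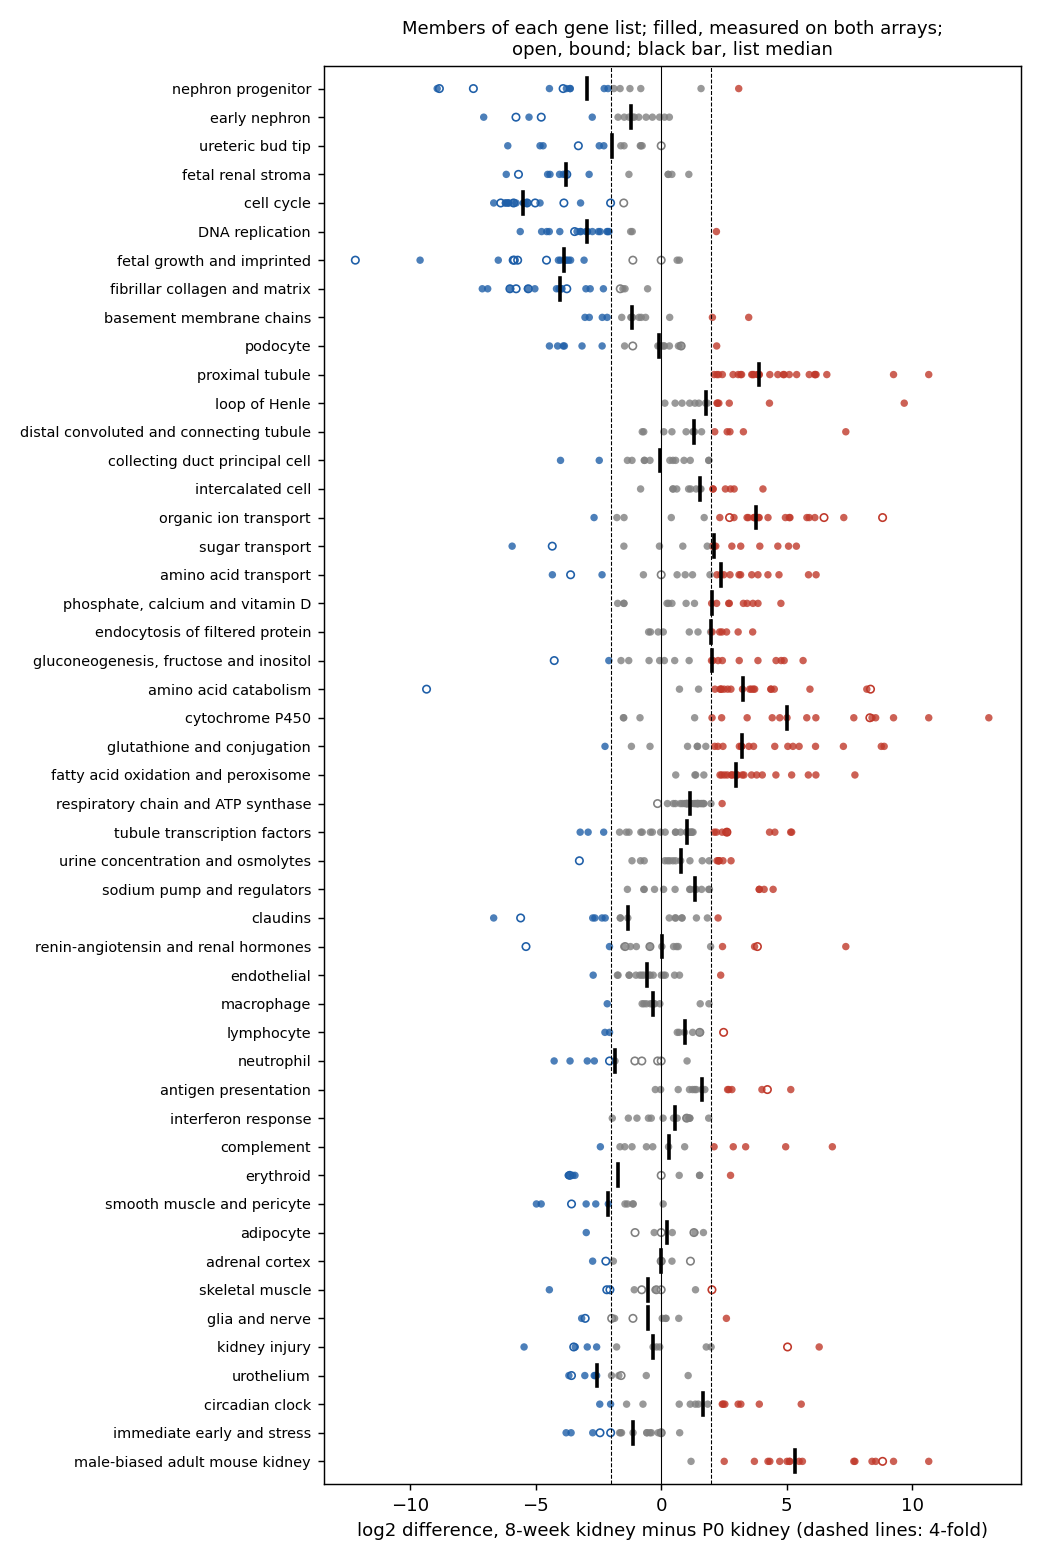
Difference between the 8-week and the P0 kidney (log2, 8-week minus P0) of every member compared, for 49 gene lists. Filled points were above background on both arrays and open points are bounds. Red points were at least 4-fold higher in the 8-week kidney, blue points at least 4-fold lower and grey points neither. The black bar is the list's median, which is 5.31 for genes biased to adult males, 3.90 for proximal tubule and -5.49 for the cell cycle.

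Cytochrome P450 genes had 15 of 19 at least 4-fold higher and none lower, with a median of 5.01. Cyp2e1, which oxidises ethanol, had a level of 7.83 in the 8-week kidney and -1.42 in the P0 kidney (609-fold higher), and Cyp4a10, which hydroxylates fatty acids, was 71.4-fold higher. Of the 3 members with a negative difference, Cyp26b1 degrades retinoic acid and stood at -0.12 in the 8-week kidney and 1.39 in the P0 kidney (2.84-fold lower). Enzymes of glutathione metabolism and conjugation had 17 of 24 at least 4-fold higher and 1 lower, with a median of 3.20. The plasma peroxidase Gpx3, made in the proximal tubule, was 22.97-fold higher, and Ugt2b38, one of several close Ugt2b copies that may share signal, was 153-fold higher. Gsta4 was the exception at -1.15 in the 8-week kidney and 1.09 in the P0 kidney (4.71-fold lower).

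Genes known to be expressed more in adult male than in adult female mouse kidney made up a separate list, because the 8-week array carried Y-linked signal and the P0 array did not. Of 18, 17 were at least 4-fold higher in the 8-week kidney and none lower, with a median of 5.31. Kap, the kidney androgen-regulated protein, had a level of 8.65 in the 8-week kidney and 4.33 in the P0 kidney (20.0-fold higher), Slco1a1 was at least 450.4-fold higher and Acsm3 was 209.8-fold higher. Several P450 genes named above are on this list. Kap is on the proximal tubule list too, and Slco1a1 and Acsm3 hold the largest values of the organic ion carrier and fatty acid oxidation lists. How much of these differences goes with age and how much with sex cannot be told apart. Eif2s3y was at least 226-fold higher, Ddx3y at least 75.6-fold higher and Xist at least 21.9-fold lower in the 8-week kidney.

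Enzymes of amino acid breakdown had 18 of 21 at least 4-fold higher and 1 lower, with a median of 3.24. Aass, the first enzyme of lysine breakdown, had a level of 6.24 in the 8-week kidney and -1.95 in the P0 kidney (291-fold higher), and Acy3, a deacylase, stood at 8.51 in the 8-week kidney and 2.59 in the P0 kidney (60.7-fold higher). Hdc was the member on the other side, as given above.

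Genes of glucose synthesis and of fructose and inositol use had 10 of 19 at least 4-fold higher and 2 lower, with a median of 2.00. G6pc, which releases free glucose, had a level of 5.64 in the 8-week kidney and -0.01 in the P0 kidney (50.2-fold higher), and Pck1, which starts glucose synthesis from oxaloacetate, stood at 7.17 in the 8-week kidney and 2.27 in the P0 kidney (29.8-fold higher). The fructose kinase Khk was 27.4-fold higher. The 2 lower genes belong to glycolysis: hexokinase Hk2 was at least 19.1-fold lower, and pyruvate kinase Pkm stood at 1.70 in the 8-week kidney and 3.79 in the P0 kidney (4.24-fold lower). Hexokinase Hk1 and lactate dehydrogenase Ldha were near equality, at 6.16 in the 8-week kidney and 6.22 in the P0 kidney and at 7.27 in the 8-week kidney and 7.15 in the P0 kidney.

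Fatty acid oxidation and peroxisome genes were higher throughout the list, in that all 24 had a positive difference, 20 were at least 4-fold higher and the median was 3.00. Ppara, the receptor that induces these enzymes, had a level of 3.77 in the 8-week kidney and -1.42 in the P0 kidney (36.6-fold higher). The peroxisomal enzyme Ehhadh stood at 4.95 in the 8-week kidney and -0.91 in the P0 kidney (58.0-fold higher), and the mitochondrial gate enzyme Cpt1a was 9.36-fold higher. Hadha had the smallest difference, at 0.64 in the 8-week kidney and 0.06 in the P0 kidney.

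Subunits of the respiratory chain and ATP synthase, with some of their regulators, moved by less. Of 32, 31 had a positive difference, yet 1 was at least 4-fold higher, and the median was 1.15 (0.60 without the percentile shift). Cytochrome c (Cycs) had a level of 6.71 in the 8-week kidney and 4.73 in the P0 kidney (3.95-fold higher) and the ATP synthase subunit Atp5b of 8.11 in the 8-week kidney and 7.18 in the P0 kidney (1.90-fold higher). The member past 4-fold was the nuclear receptor Esrra (5.37-fold higher), which controls such genes. The muscle isoform Cox8b was the one member below equality, as a bound from a signal too dim in the 8-week kidney.

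Tubule transcription factors had 10 of 33 at least 4-fold higher and 3 lower, with a median of 1.03. Nuclear receptors led them: after Ppara, the bile acid receptor Nr1h4 had a level of 4.82 in the 8-week kidney and -0.33 in the P0 kidney (35.7-fold higher), the oxysterol receptor Nr1h3 was 23.02-fold higher and the thyroid hormone receptor Thrb stood at -0.20 in the 8-week kidney and -4.51 in the P0 kidney (19.9-fold higher). The other thyroid hormone receptor, Thra, was near equality at 1.70 in the 8-week kidney and 2.13 in the P0 kidney. The proximal tubule factor Hnf4a was 6.17-fold higher. The 3 lower factors were Foxa1 (9.35-fold lower), Hoxd10 (7.51-fold lower) and Tfap2a (4.89-fold lower).

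The genes of the nephron-forming zone gave the opposite picture. Of 16 nephron progenitor genes, 10 were at least 4-fold lower in the 8-week kidney and 1 higher, with a median of -2.94. Six2, which keeps progenitors undifferentiated, was not above background in the 8-week kidney, against a level of 3.45 in the P0 kidney (at least 455-fold lower), with its 3 probes spread over differences from -10.74 to -2.49. Gdnf, the signal that makes the ureteric bud branch, was not above background in the 8-week kidney, against a level of 2.10 in the P0 kidney (at least 178-fold lower). Crym and Eya1 went against the list. Crym, a thyroid hormone-binding protein, had a level of 4.19 in the 8-week kidney and 1.11 in the P0 kidney (8.50-fold higher), and the progenitor regulator Eya1 of 6.14 in the 8-week kidney and 4.55 in the P0 kidney (3.00-fold higher).

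Genes of early nephrons had 5 of 16 at least 4-fold lower and none higher, with a median of -1.20. Wnt4, which drives progenitors to become epithelium, had a level of -3.37 in the 8-week kidney and 3.69 in the P0 kidney (134-fold lower). The Notch target Hey1 was 38.4-fold lower, and the growth factor Fgf8 was at least 27.4-fold lower. Pax8 and Irx1, which mature tubules keep, were near equality, at 1.16 in the 8-week kidney and 1.51 in the P0 kidney and at 3.105 in the 8-week kidney and 2.97 in the P0 kidney. Of 12 genes of the ureteric bud tip 6 were at least 4-fold lower and none higher, with a median of -1.95. The branching signals Wnt11 (28.3-fold lower) and Ret (at least 9.84-fold lower) and the factor Etv4 (26.0-fold lower) were lower. Fetal stroma genes had 9 of 14 at least 4-fold lower and none higher, with a median of -3.77. Foxd1, the defining factor of that lineage, was 22.97-fold lower, and the retinoic acid enzyme Aldh1a2 stood at -2.37 in the 8-week kidney and 3.79 in the P0 kidney (71.9-fold lower).

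Cell division genes were lower as a block. Of 21 compared, 20 were at least 4-fold lower in the 8-week kidney and none higher, with a median of -5.49. Mki67, the usual label of cycling cells, had a level of -2.90 in the 8-week kidney and 2.59 in the P0 kidney (45.0-fold lower). The mitotic kinase Cdk1 stood at -4.30 in the 8-week kidney and 1.62 in the P0 kidney (60.6-fold lower) and its partner cyclin Ccnb2 at -2.73 in the 8-week kidney and 3.47 in the P0 kidney (73.9-fold lower). The 3 probes of Cdk1 ran from -5.92 to -1.45, so 1 of them fell short of 4-fold. The topoisomerase Top2a was not above background in the 8-week kidney, against a level of 1.01 in the P0 kidney (at least 83.9-fold lower), and the 1 member short of 4-fold was the spindle checkpoint kinase Ttk, a bound from a weak P0 signal (at least 2.81-fold lower).

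The promoters of 3 of these genes are printed for a pair of short elements known to time transcription in the second part of the cell cycle. They are the cell cycle homology region, TTTGAA, and the CCAAT box. The windows are the 150 bases before the first listed transcription start in RefSeq (GRCm38.p6), written 5′ to 3′ on the gene's strand, with both elements in capitals on either strand (the first as TTTGAA or TTCAAA and the second as CCAAT or ATTGG).
Cdk1 (chr10:69352913-69353062, minus strand): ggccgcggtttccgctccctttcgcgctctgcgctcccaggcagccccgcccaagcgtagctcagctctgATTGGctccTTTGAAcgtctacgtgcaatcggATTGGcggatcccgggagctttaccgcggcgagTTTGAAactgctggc
Cdc20 (chr4:118437344-118437493, minus strand): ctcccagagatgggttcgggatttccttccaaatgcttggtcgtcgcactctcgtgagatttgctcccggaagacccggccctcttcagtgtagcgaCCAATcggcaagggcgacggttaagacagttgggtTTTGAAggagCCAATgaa
Top2a (chr11:99024190-99024339, minus strand): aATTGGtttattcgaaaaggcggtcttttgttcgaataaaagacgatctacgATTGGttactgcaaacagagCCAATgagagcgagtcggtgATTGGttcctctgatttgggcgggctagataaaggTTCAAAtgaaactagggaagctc
The 3 windows printed hold both elements, as do those of Mki67, Kif11 and Ube2c. Most of the cell cycle windows do not hold both in these 150 bases. The windows of Ccnb1, Ccnb2, Plk1, Aurka, Bub1, Bub1b, Cenpa, Cenpf and Ttk hold CCAAT only. Those of Birc5 and Nusap1 hold neither. For the counts, both elements were searched on both strands of the longer 300-base promoters (250 bases before the start and 50 after it). TTTGAA was found in 13 of the 17 cell cycle genes in the table (76.5%), against 18.1% of all 27025 promoters. CCAAT was found in 15 of the 17 (88.2%), against 37.9%. Neither is confined to this list, since TTTGAA was found in 38.5% of the proximal tubule promoters and CCAAT in 64.7% of the DNA replication promoters. A match of letters is a description and not a measured binding site. By the probe used for each, the 3 genes shown were 60.6-fold (Cdk1), 41.1-fold (Cdc20) and at least 83.9-fold (Top2a) lower in the 8-week kidney.

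DNA replication genes had 18 of 21 at least 4-fold lower and 1 higher, with a median of -2.95. The helicase subunit Mcm3 had a level of -1.21 in the 8-week kidney and 3.56 in the P0 kidney (27.1-fold lower). Uhrf1, which helps copy DNA methylation at the fork, had 2 probes that differed in direction, at -5.61 and 0.72, and it is among the 18. Pcna, the sliding clamp, was 4.22-fold lower, a smaller change than most of the list. The short E2F site GGCGGGA was found in 6 of 17 of their promoters (35.3%), against 11.4% of all and 29.4% of the cell cycle promoters.

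Fetal growth and imprinted genes had 15 of 19 at least 4-fold lower and none higher, with a median of -3.85. Besides H19 and Mest, the insulin-like growth factor Igf2 was not above background in the 8-week kidney, against a level of 0.51 in the P0 kidney (at least 59.4-fold lower), and Dlk1, a membrane ligand of the Notch type, stood at -5.17 in the 8-week kidney and 1.31 in the P0 kidney (89.6-fold lower). The growth-restraining genes Cdkn1c and Plagl1 were lower too, at 1.84 in the 8-week kidney and 5.69 in the P0 kidney (14.46-fold lower) and at 0.34 in the 8-week kidney and 4.35 in the P0 kidney (16.1-fold lower). The 4 probes of Plagl1 ran from -4.09 to -0.37. The RNA-binding proteins Igf2bp2 (17.05-fold lower) and Igf2bp3 (at least 23.7-fold lower) and the chromatin protein Hmga2 (at least 57.6-fold lower) were lower. The receptor Igf1r was not, at 2.79 in the 8-week kidney and 2.07 in the P0 kidney (1.65-fold higher). Mirg, the other member with a positive difference, cannot be read as 1 value, since its 3 probes ran from -5.18 to 0.64.

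Of 20 genes of fibrillar collagen and matrix, 16 were at least 4-fold lower and none higher, with a median of -4.02. Col1a1 had a level of -0.74 in the 8-week kidney and 4.29 in the P0 kidney (32.7-fold lower) and Col3a1 of -0.76 in the 8-week kidney and 4.56 in the P0 kidney (40.1-fold lower). Fbn2, the fetal fibrillin, stood at -4.96 in the 8-week kidney and 1.04 in the P0 kidney (63.95-fold lower), while Fbn1, the adult form, was 7.09-fold lower. Sparc and Col14a1 differed least, at 5.86 in the 8-week kidney and 7.30 in the P0 kidney and at 1.07 in the 8-week kidney and 1.61 in the P0 kidney, and the 3 probes of Sparc ran from -1.59 to 0.23.

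Of 15 basement membrane chains, 12 had a negative difference and 3 a positive one, and the chains of collagen IV lay on both sides. Col4a3, a chain of the mature glomerular network, had a level of -0.31 in the 8-week kidney and -3.79 in the P0 kidney (11.2-fold higher), and Col4a4 of 0.92 in the 8-week kidney and -1.12 in the P0 kidney (4.11-fold higher). Col4a1 and Col4a2, chains of the early network, were at 1.26 in the 8-week kidney and 3.60 in the P0 kidney (5.08-fold lower) and at 1.52 in the 8-week kidney and 3.09 in the P0 kidney (2.97-fold lower). The third mature chain, Col4a5, did not follow the other two and stood at -0.37 in the 8-week kidney and 0.42 in the P0 kidney. Of all 15 chains 2 were at least 4-fold higher and 4 lower, with a median of -1.16. Among laminins, Lamc1 was 8.19-fold lower and Lamb2, a chain of the mature glomerulus, was at -0.70 in the 8-week kidney and 0.44 in the P0 kidney. Lamb1 and Lamb2 did not part, being 2.24-fold and 2.20-fold lower in the 8-week kidney.

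The podocyte list had 1 of 18 at least 4-fold higher and 6 lower, with a median of -0.10 that lay between -0.66 and 0.00 over the other settings. Nephrin (Nphs1), the main protein of the filtration slit, was near equality, at -1.40 in the 8-week kidney and -2.16 in the P0 kidney. The 6 lower members included the developmental factors Wt1 (21.8-fold lower), Foxc2 (17.4-fold lower) and Tcf21 (14.9-fold lower), each of them expressed by fetal cells other than podocytes as well. The rest of the 6 were Cdkn1c (14.46-fold lower), Kirrel (8.89-fold lower) and Npnt (5.10-fold lower). The 3 probes of Kirrel ran from -3.15 to -0.39. Clic5, which anchors the foot process, was 4.63-fold higher.

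Renin-angiotensin and renal hormone genes had 4 of 17 at least 4-fold higher and 2 lower, with a median of 0.03 that turned to -0.53 without the percentile shift. Angiotensinogen (Agt) had a level of 0.39 in the 8-week kidney and -3.33 in the P0 kidney (13.2-fold higher) and the converting enzyme Ace of 1.02 in the 8-week kidney and -1.43 in the P0 kidney (5.43-fold higher). The receptor Agtr2, known from fetal tissue, was not above background in the 8-week kidney, against a level of 0.58 in the P0 kidney (at least 41.7-fold lower), and the main receptor Agtr1a was at 1.55 in the 8-week kidney and 1.06 in the P0 kidney. The renin genes Ren1 and Ren2, close copies that probes may not separate, stood at -0.75 in the 8-week kidney and 0.48 in the P0 kidney and at 4.12 in the 8-week kidney and 4.58 in the P0 kidney.

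Genes of other cell types moved by less, apart from muscle, urothelium and blood. Of 11 smooth muscle and pericyte genes 6 were at least 4-fold lower and none higher, with a median of -2.10, and smooth muscle actin (Acta2) had a level of -0.28 in the 8-week kidney and 4.68 in the P0 kidney (31.3-fold lower). Urothelium genes, which line the renal pelvis, had 6 of 11 at least 4-fold lower and none higher, with Upk3a at -1.95 in the 8-week kidney and 1.73 in the P0 kidney (12.8-fold lower). Endothelial genes had 1 of 18 higher (Esm1, 5.17-fold higher) and 1 lower (Aplnr, 6.53-fold lower), with a median of -0.58. These counts do not exceed the shares over all genes, 8.93% higher and 9.35% lower. Adult globin was lower, with Hba-a1 at 2.72 in the 8-week kidney and 6.25 in the P0 kidney (11.5-fold lower), and the sum of linear levels of the erythroid list was 84.7 times the array's 75th percentile in the 8-week kidney and 146 times in the P0 kidney. That sum leaves out Hba-a2, which is not on the list. Hba-a2 was at 4.91 in the 8-week kidney and 7.82 in the P0 kidney (7.52-fold lower), among the 10 brightest P0 probes. The embryonic globins Hbb-bh1, Hba-x and Hbb-y were not above background in either kidney.

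Among tissues that a kidney dissection can carry along, the adrenal cortex markers differed: Nr5a1 was above background in both kidneys, at -2.58 in the 8-week kidney and -3.01 in the P0 kidney, Star in the P0 kidney only and Cyp11b1 in neither. Of the fat markers, Plin1 was above background in the P0 kidney only and Adipoq in neither. The fat carrier Fabp4, which endothelium expresses too, stood at 2.05 in the 8-week kidney and 5.03 in the P0 kidney (7.91-fold lower). Ckm of skeletal muscle was above background in the 8-week kidney only, at -3.99, and Acta1 was at -4.67 in the 8-week kidney and -0.22 in the P0 kidney (21.9-fold lower). The sums of linear levels were 0.45 (8-week) and 1.54 (P0) for skeletal muscle and 1.15 (8-week) and 3.91 (P0) for adrenal cortex, in multiples of the array's 75th percentile. Their part in the differences above was not tested.

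Antigen presentation genes had 6 of 15 at least 4-fold higher and none lower, with a median of 1.62. The class II chaperone Cd74 had a level of 2.79 in the 8-week kidney and -2.37 in the P0 kidney (35.7-fold higher), and the class II chain H2-Eb1 stood at 4.60 in the 8-week kidney and 0.59 in the P0 kidney (16.1-fold higher). Macrophage markers did not move with them: of 13, none was at least 4-fold higher and 1 was lower, and the pan-macrophage marker Adgre1 was at -2.28 in the 8-week kidney and -1.52 in the P0 kidney. Among all genes compared, 8.93% were at least 4-fold higher and 9.35% lower. The interferon response list had no member past 4-fold in either direction, with a median of 0.56 (0.01 without the percentile shift). Complement genes were split, with 5 of 13 at least 4-fold higher and 1 lower. C4b had a level of 2.47 in the 8-week kidney and -4.34 in the P0 kidney (113-fold higher) and factor B (Cfb) of 5.27 in the 8-week kidney and 0.32 in the P0 kidney (31.1-fold higher), while the first-component gene C1s1 was at -0.57 in the 8-week kidney and 1.08 in the P0 kidney (3.12-fold lower). Neutrophil genes had 5 of 11 at least 4-fold lower and none higher, with S100a8 at -3.91 in the 8-week kidney and 0.35 in the P0 kidney (19.2-fold lower).

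Injury markers gave no common direction, with 2 of 13 at least 4-fold higher and 5 lower. Havcr1, known as kidney injury molecule, had a level of 0.83 in the 8-week kidney and -5.46 in the P0 kidney (78.3-fold higher), whereas Lcn2 stood at -2.38 in the 8-week kidney and 0.56 in the P0 kidney (7.69-fold lower) and Timp1 at -5.15 in the 8-week kidney and 0.31 in the P0 kidney (44.0-fold lower). Immediate early genes, which respond to handling within minutes, had 5 of 17 at least 4-fold lower and none higher, with Egr1 at -2.24 in the 8-week kidney and 1.35 in the P0 kidney (12.02-fold lower) and Atf3 at -4.002 in the 8-week kidney and -0.22 in the P0 kidney (13.8-fold lower).

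Clock output genes were among the larger positive differences. The list of 16 had 7 members past 4-fold on the higher side and 2 on the lower, with a median of 1.66. The output factors Hlf, Dbp and Tef had levels of 2.54 in the 8-week kidney and -3.04 in the P0 kidney (47.7-fold higher), of 5.29 in the 8-week kidney and 1.38 in the P0 kidney (14.99-fold higher) and of 6.15 in the 8-week kidney and 3.08 in the P0 kidney (8.36-fold higher). The repressors Nr1d1 (5.53-fold higher) and Per3 (5.40-fold higher) were higher, and the activator Arntl (4.04-fold lower) and the repressor Nfil3 (5.45-fold lower), which peak at the opposite phase, were lower. The time of day at which either kidney was taken is not given in the sources used here, so age and time of day cannot be told apart for these genes.

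The other arrays place these levels in a longer course. The median level of the 28 proximal tubule genes was -5.80 in the E13.5 kidney, 1.42 in the P0 kidney and 5.92 in the 8-week kidney. For the nephron progenitor list the medians were 1.54 (E13.5), 0.62 (P0) and -2.81 (8 weeks), and for the cell cycle list 2.59 (E13.5), 1.66 (P0) and -4.16 (8 weeks). In the transplants the proximal tubule median was -0.96 at 2 weeks and -2.32 at 4 weeks, both between the E13.5 and the P0 value. The matrix median was 2.83 at 2 weeks and 1.75 at 4 weeks in the transplants, against -2.86 in the 8-week kidney, which was the lowest of the 5 arrays.

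**Figure D4:**
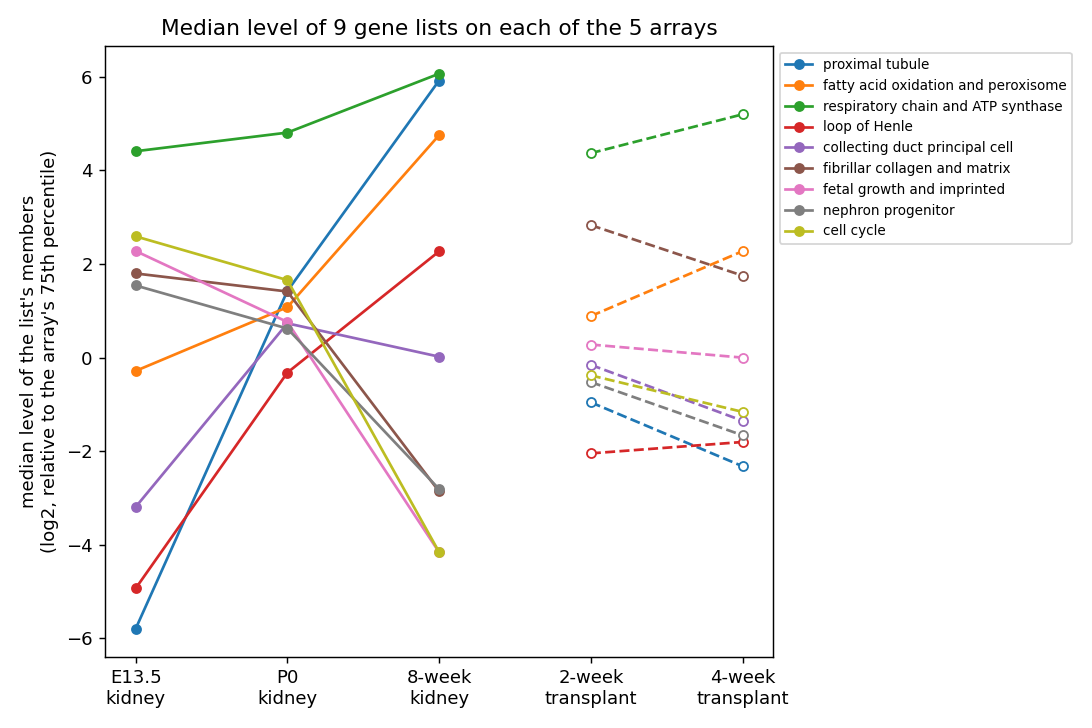
Median level of the members of 9 gene lists (log2, relative to the array's 75th percentile) in the E13.5, P0 and 8-week kidney (filled circles, solid lines) and in the 2-week and 4-week transplants (open circles, dashed lines), 1 array each. The proximal tubule, fatty acid oxidation and loop of Henle medians are highest in the 8-week kidney, while the cell cycle, fetal growth, matrix and nephron progenitor medians are lowest there.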

How the data were processed

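RNA of each kidney was labelled with Cy3 and hybridised to a one-colour Agilent mouse array, per the labels' protocols. The deposited scanner files give an intensity for each of 44397 spots, from which the scanner software (Agilent Feature Extraction, version 10.7.3.1) had subtracted background, per the submitters' processing notes and the file headers. The authors' deposited gene table holds log2 values. Set against the scanner files, 99.7% of them lay no more than 0.01 from the unshifted log2 intensity, taken as the mean of all probes for a gene and centred on that gene's median, and 18.2% were after a 75th percentile shift, so it carries no such shift although its title line names one. Other deposited columns used were spot flags, per the file headers.

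Here each intensity was divided by the 75th percentile of the 43020 spots other than controls on its array and taken to log2. The percentiles were 1170.2 (8-week kidney) and 1720.1 (P0 kidney). No spot was saturated, and 447 outlier spots were left out. Replicate spots were averaged. A gene with several probes was represented by the 1 whose level, averaged over the 5 arrays, was highest. Names for 31781 of 39414 probes were found through gene identifiers in the authors' table, 2026 more by the authors' symbol and 19 by accession, which left 5588 unnamed. Where a probe was dim in 1 kidney, its level there was raised, if lower, to the lowest level well above background on that array (-5.38 in the 8-week kidney, -6.02 in the P0 kidney), and the fold is "at least". For 470 genes this would have turned the direction, and they entered as 0.

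No test was made, since each age has 1 array. The 50 lists, with 781 different genes of which 741 were compared, and their members were chosen with earlier results of these data known. Genes named are the 15 largest differences and 10 largest bounds in each direction, and list members that lie furthest apart, go against their list or define it, of which a few are left out here. The differences and 4-fold counts were tested on simulated data, and the bounds on a small made-up example. Alternatives were other scalings, filters, thresholds, probe rules and the authors' table. Python 3.11.15, pandas 2.3.3, R 4.3.3 and limma 3.58.1 (normexp, quantile) were used.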

Additional observations from a re-analysis of the deposited data

How the results depend on the processing

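Of the 1577 genes at least 4-fold higher and 1651 at least 4-fold lower in the 8-week kidney, the counts changed most with the scaling, the background correction and the threshold. Without the percentile shift 992 were higher and 2552 lower, and 2969 were lower in the authors' deposited table. With normexp background correction 993 were lower. At 2-fold 4167 were higher and 3700 lower, and at 8-fold 711 were higher and 781 lower. Of 36 gene lists with a median of at least 1 in size, 35 kept its sign in each of the 9 other settings that gave a value; the sex-linked list had none where both arrays had to be above background. The exception was the erythroid list, whose median of -1.72 turned to 0.0752 when genes dim in both kidneys entered at measured values. Of 417 named or listed genes past 4-fold, Slc14a2 alone turned, to -1.19 as the mean over its probes. Of the 417, 364 stayed past 4-fold without the shift and 363 with normexp. No paired analysis was possible because each age had 1 array and the labels give no replicate numbers. Leaving out a replicate was not possible for the same reason. Signal over background limits the folds: 60.9% of spots were well above background in the 8-week kidney and 65.7% in the P0 kidney, and dim genes have bounds only.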

Other observations

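Gene families were also collected by their names, some of their members being on the lists above, and the name patterns were written after values of the lists had been seen, so they are descriptions only. Tissue kallikreins, serine proteases made in the distal tubule, had 12 of 14 at least 4-fold higher in the 8-week kidney and none lower, with a median difference of 6.82. Klk1b5 had a level of 7.53 in the 8-week kidney and 0.86 in the P0 kidney. The copies are nearly identical in sequence, so their probes may read the same transcripts. Carboxylesterases had 10 of 11 at least 4-fold higher and none lower (median 3.63), medium-chain acyl-CoA synthetases had 4 of 4 (median 5.09), and UDP glucuronosyltransferases had 10 of 13 (median 5.49). Over all 293 solute carriers compared, 102 were at least 4-fold higher and 22 lower, with a median of 1.05 (0.50 without the percentile shift).

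Of ribosomal protein genes 79 of 83 had a negative difference, with a median of -0.95 and a range from -2.42 to 2.54, while 1 was at least 4-fold lower and 1 higher. The median was between -1.63 and -0.85 over the other settings. The member at least 4-fold higher was Rpl3l, known as a form of striated muscle, at -2.49 in the 8-week kidney and -5.03 in the P0 kidney. Proteasome subunits, another large complex, had none of 38 past 4-fold, and their median of 0.35 turned to -0.20 without the percentile shift. Of 35 Hox genes 10 were at least 4-fold lower and none higher, with Hoxa11 at -3.19 in the 8-week kidney and 1.36 in the P0 kidney, although Hoxa7 stood at 3.38 in the 8-week kidney and 2.02 in the P0 kidney. Replication-dependent histones divided, with 16 of 42 at least 4-fold lower and 3 higher. H2ac23 had a level of 1.45 in the 8-week kidney and 7.20 in the P0 kidney, whereas H2bc4 had 5.81 in the 8-week kidney and 3.11 in the P0 kidney. Histone copies may share signal between probes.

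Probes of the same gene did not always agree in direction. Of 5008 genes with at least 2 probes compared, 18 had probes at least 4-fold apart from equality in opposite directions, among them Atp13a4, Chaf1b, Tet1, Pcsk5 and Slc14a2. Of 865 genes past 4-fold with at least 2 probes, 787 had all probes on the same side.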
